A study of Homo sapiens with 12 samples.

Results

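The messages of the CXC chemokine family and of its CX3C relative were followed in HK2 cells, an immortalised line of human proximal tubular epithelium, under TNF-α and short-chain fatty acids (SCFA). The 10 genes were chosen by symbol from the 58278 genes listed for each library: CXCL1, CXCL2, CXCL3, CXCL5, CXCL6, CXCL8, CXCL10, CXCL11, CXCL16 and CX3CL1. Of these, 9 passed the filter on low counts and CXCL11 did not. There were 12 libraries in 6 groups of 2 biological replicates. Untreated cells formed the group Ctrl. The group TN received TNF-α (5 ng/mL, 3 h). Propionate at 15 mM or butyrate at 3 mM was given for 24 h ahead of the same TNF-α stimulus in PRTN and BUTN, and for 24 h following it in TNPR and TNBU. The doses of the acids differed, so that compound and dose cannot be told apart. No library of cells kept for 24 h after TNF-α without an SCFA, or given an SCFA without TNF-α, was analysed here, so the SCFA and the later collection cannot be told apart in TNPR and TNBU.

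Chemokines are small secreted or membrane-bound proteins that draw leukocytes along a concentration gradient through G protein-coupled receptors. Some CXC members carry a Glu-Leu-Arg (ELR) motif before the first cysteine, here CXCL1, CXCL2, CXCL3, CXCL5, CXCL6 and CXCL8 (interleukin-8). These act on CXCR2, some of them also on CXCR1, and attract neutrophils. CXCL10 and CXCL11 lack the motif, are classically induced by interferons and draw activated T cells through CXCR3. CXCL16, the ligand of CXCR6, and CX3CL1 (fractalkine), the ligand of CX3CR1, are made as membrane proteins on a mucin stalk and are released by the sheddases ADAM10 and ADAM17. Tubular epithelial cells release several of these proteins when the kidney is inflamed, and NF-κB is a main activator of the ELR genes downstream of TNF-α.

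The 6 ELR genes lay within 358.7 kb of chromosome 4 (GRCh38, positions 73740519 to 74099196), a stretch that held 20 annotated genes. CXCL10 and CXCL11 were neighbours on the same chromosome, within 20.3 kb (76021118 to 76041415). CXCL16 lay on the minus strand of chromosome 17 (4733533 to 4739928) and CX3CL1 on the plus strand of chromosome 16 (57372477 to 57385044). A RefSeq promoter entry was matched for 8 of the 10 members. The 250 bases upstream of the start site are shown for the 6 ELR genes, which share an NF-κB type motif and whose messages differed in direction, and for CXCL10, the member whose window also held an interferon type motif. Sequences are from the RefSeq table of GRCh38.p14 and run 5′ to 3′ on the gene's strand, with NF-κB and interferon type motifs in capitals. The windows are chr4:73740319-73740568 (plus strand) for CXCL8, chr4:74099196-74099445 (minus) for CXCL2, chr4:74038690-74038939 (minus) for CXCL3, chr4:73869143-73869392 (plus) for CXCL1, chr4:73998678-73998927 (minus) for CXCL5, chr4:73836428-73836677 (plus) for CXCL6 and chr4:76023498-76023747 (minus) for CXCL10.
CXCL8: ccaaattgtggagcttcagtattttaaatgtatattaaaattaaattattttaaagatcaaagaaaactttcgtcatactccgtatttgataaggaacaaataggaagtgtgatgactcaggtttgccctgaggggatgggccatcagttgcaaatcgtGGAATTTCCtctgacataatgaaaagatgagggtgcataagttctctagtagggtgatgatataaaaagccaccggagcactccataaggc
CXCL2: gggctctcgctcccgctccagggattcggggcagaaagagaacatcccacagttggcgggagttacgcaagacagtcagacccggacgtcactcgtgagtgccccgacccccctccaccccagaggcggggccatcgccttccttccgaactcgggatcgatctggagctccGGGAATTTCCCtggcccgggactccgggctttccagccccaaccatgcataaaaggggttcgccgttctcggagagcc
CXCL3: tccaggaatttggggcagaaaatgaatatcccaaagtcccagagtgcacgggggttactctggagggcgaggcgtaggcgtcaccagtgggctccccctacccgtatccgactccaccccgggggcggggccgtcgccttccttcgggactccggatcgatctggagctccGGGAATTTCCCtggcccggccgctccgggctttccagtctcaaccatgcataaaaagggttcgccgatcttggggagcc
CXCL1: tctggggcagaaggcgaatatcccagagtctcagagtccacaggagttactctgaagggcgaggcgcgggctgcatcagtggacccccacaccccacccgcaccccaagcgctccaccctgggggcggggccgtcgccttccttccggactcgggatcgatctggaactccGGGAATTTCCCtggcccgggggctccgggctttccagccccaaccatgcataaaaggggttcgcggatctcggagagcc
CXCL5: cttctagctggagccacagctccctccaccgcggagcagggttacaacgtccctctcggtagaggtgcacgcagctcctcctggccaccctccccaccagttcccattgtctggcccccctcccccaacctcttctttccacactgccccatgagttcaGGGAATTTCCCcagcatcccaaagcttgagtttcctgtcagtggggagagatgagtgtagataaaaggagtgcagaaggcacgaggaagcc
CXCL6: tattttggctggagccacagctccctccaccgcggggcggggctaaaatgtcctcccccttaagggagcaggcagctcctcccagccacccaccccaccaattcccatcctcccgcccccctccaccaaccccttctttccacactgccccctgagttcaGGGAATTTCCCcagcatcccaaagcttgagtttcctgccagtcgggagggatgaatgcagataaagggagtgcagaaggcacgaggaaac
CXCL10: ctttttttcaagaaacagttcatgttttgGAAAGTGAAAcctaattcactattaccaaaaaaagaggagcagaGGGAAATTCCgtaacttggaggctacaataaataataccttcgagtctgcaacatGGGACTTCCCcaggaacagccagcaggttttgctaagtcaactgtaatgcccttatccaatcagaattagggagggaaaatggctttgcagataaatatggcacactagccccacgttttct

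The letters GGAANTTCC, searched on both strands, were present in all 8 promoter windows, CXCL11 included, and in 0.831% of the 27305 RefSeq promoter windows of this length. In CXCL1, CXCL2, CXCL3, CXCL5 and CXCL6 the same letters were part of GGGAATTTCCC, which the 10-base κB consensus also matches on both strands, at an overlapping position. That consensus was found in 5.05% of all windows. It was not matched in CXCL8, where GGAANTTCC stood without the outer bases. The interferon-type letters, GAAA and again GAAA with any 2 bases between, were found in CXCL10 among these 8 windows and in 3.07% of all windows. The AP-1 type letters TGANTCA were found in CXCL8 and CXCL11 and in 6.60% of all windows. The TATA letters TATAAA were matched in CXCL8 and CXCL11 and in 11.1% of all windows, and the GC-box letters GGGCGG in CXCL1, CXCL3 and CXCL6 and in 42.3%. The CXCL5 and CXCL6 windows had 85.3% identical alignment columns, CXCL1 and CXCL3 had 81.4%, CXCL2 and CXCL3 had 73.4%, and CXCL1 and CXCL2 had 70.1%. A match describes these letters and is neither a shown binding site nor a cause.

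The total expected count per library was 27269986 to 33851130, and the scaling (TMM) factors were 0.913 to 1.06. Levels are given in CPM, the count of a gene per 1000000 counts of the library, after this scaling. A gene was called where the fold change was over 1.5 and the adjusted p of limma-voom, over all 24342 tested genes, was under 0.05. Of the kidney epithelium markers, LRP2 (megalin) had no count in Ctrl or TN, whereas the summed level of the 12 markers was 1769 to 1923 CPM in these 4 libraries and 2005 to 2603 CPM in the 8 SCFA libraries. The 12 did not move together. Against TN, 8, 8, 7 and 8 were called higher in PRTN, BUTN, TNPR and TNBU, and 3 were called lower in each. Of 10 leukocyte markers, MS4A1 was at 0 in all 12 libraries, and PTPRC (CD45) had at most 5 counts and CD3E at most 2 in any library. The leukocyte sum was 31.0 to 57.8 CPM over all libraries, nearly all of it CD68. Of the 6 leukocyte markers tested, 4, 3, 3 and 3 were called higher than TN in PRTN, BUTN, TNPR and TNBU, and 0 lower. The sum of 5 endothelial markers was 0.143 to 0.287 CPM in Ctrl and TN against 2.29 to 3.87 CPM with SCFA, and that of 6 fibroblast markers 52.7 to 59.6 against 204 to 255 CPM. Of the 6 fibroblast markers, 4, 5, 4 and 5 were called higher than TN in PRTN, BUTN, TNPR and TNBU, and 1 was called lower in each. Over all tested genes, 23.1% to 25.0% were higher and 14.8% to 16.9% lower than TN in these groups. In each marker list, 2 genes passed the filter on low counts only through the SCFA groups. The numbers of markers called higher can include such genes, so they are not given as results beside these shares. The kidney, endothelial and fibroblast sums moved with the SCFA groups, and the part of the markers in the chemokine results was not tested.

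Before any stimulus the cells already carried much CXCL8 message. Per kilobase of exon, CXCL8 stood at 363 ± 5.37 CPM in Ctrl (SD, n = 2), CXCL2 at 117 ± 9.36, CX3CL1 at 18.8 ± 0.338, CXCL3 at 13.6 ± 0.181, CXCL16 at 2.49 ± 0.273 and CXCL5 at 1.45 ± 0.179. CXCL1 followed at 0.283 ± 0.0107 and CXCL6 at 0.111 ± 0.0817. In this order of levels each of the neighbours named differed by more than their SDs. In TN the first places went to CXCL8 (680 ± 25.7 CPM per kilobase), CXCL2 (203 ± 15.4) and CXCL3 (31.1 ± 1.16), ahead of CX3CL1 (18.2 ± 1.65), CXCL5 (5.81 ± 0.0826) and CXCL16 (3.08 ± 0.343). In TNBU, CXCL5 had moved up to rank 3 at 21.6 ± 0.0260 CPM per kilobase, behind CXCL8 (325 ± 32.9) and CXCL2 (34.9 ± 8.77) and ahead of CX3CL1 (10.1 ± 1.77). CXCL16 (6.24 ± 0.504) and CXCL3 (5.76 ± 0.998) did not differ beyond their spread there.

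**Figure D1:**
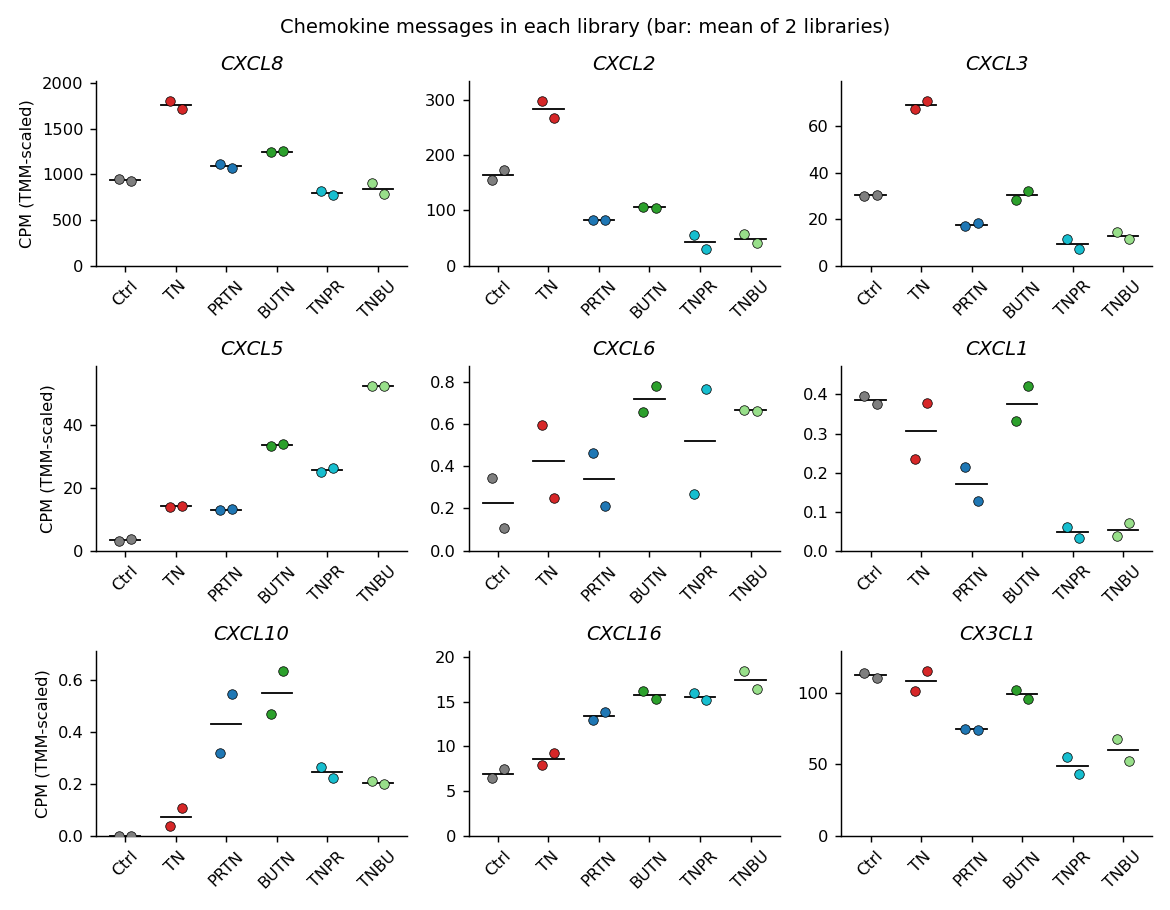
Level of each tested chemokine message in each library, in TMM-scaled CPM on linear axes that start at 0. Points are libraries, 2 in each group, and bars are their means. CXCL8, CXCL2 and CXCL3 were highest in TN, whereas CXCL5 was highest in TNBU, at 52.6 and 52.5 CPM.

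TNF-α raised the neutrophil attractants that were well expressed, and none of the members was called lower. Against Ctrl, 4 of the 9 tested members were called higher in TN, where 0.764% of all tested genes were called higher, and 0 lower, where 0.534% were. No member was lower by edgeR or DESeq2 or at an unadjusted p under 0.05 either (0 by each). The median log2 fold change of the 9 was 0.91, beside -0.01 over all tested genes. CXCL5 (also called ENA-78) was at 3.24 and 3.85 CPM in Ctrl and at 14.0 and 14.3 CPM in TN. The TN libraries were clear of the Ctrl libraries, and the log2 fold change was 2.001 ± 0.12 (SE, limma-voom adjusted p = 4.26e-06). CXCL3 (GRO-γ) was at 30.0 and 30.5 CPM in Ctrl and at 67.3 and 70.9 CPM in TN, a log2 fold change of 1.19 ± 0.13 (limma-voom adjusted p = 0.000347). CXCL8 was at 948.5 and 928.8 CPM in Ctrl and at 1806 and 1712 CPM in TN, a log2 fold change of 0.91 ± 0.06 (limma-voom adjusted p = 1.12e-05). For both genes the groups did not overlap. CXCL2 (GRO-β) was at 154.8 and 173.3 CPM in Ctrl and at 298.5 and 268.0 CPM in TN, and its log2 fold change was 0.79 ± 0.18 (limma-voom adjusted p = 0.0367). The groups were apart as well, but the call of CXCL2 was lost with edgeR (adjusted p = 0.0565), with DESeq2 (adjusted p = 0.0718) and without any 1 of the 4 libraries (limma-voom adjusted p from 0.109 to 0.262, log2 fold change from 0.71 to 0.87).

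The other members were not called in TN. CX3CL1 was at 113.6 and 110.7 CPM in Ctrl and at 101.3 and 115.2 CPM in TN, with overlapping groups. CXCL16 was at 6.42 and 7.50 CPM in Ctrl and at 7.92 and 9.27 CPM in TN, close to each other but not overlapping (log2 fold change 0.31, 95% interval 0.02 to 0.60, limma-voom adjusted p = 0.263). CXCL6 (GCP-2) had 3 to 27 counts per library over the whole series. CXCL10 had 0 counts in both Ctrl libraries and 1 and 3 in TN, at or under the floor of 3 counts, which amounts to 0.0867 to 0.112 CPM. CXCL11 had 0 counts in all 12 libraries, so that a level of up to that floor remained possible in each.

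Over all 4 SCFA groups, the GRO messages CXCL2 and CXCL3 were lower than in TN. CXCL2 was at 82.7 and 82.4 CPM in PRTN, at 105.7 and 104.9 in BUTN, at 55.4 and 29.8 in TNPR and at 57.4 and 40.1 in TNBU. Every SCFA library was below both TN libraries and also below both Ctrl libraries. The log2 fold change of CXCL2 against TN was -1.78 ± 0.19 for PRTN, -1.42 ± 0.19 for BUTN, -2.79 ± 0.20 for TNPR and -2.56 ± 0.20 for TNBU (SE, limma-voom adjusted p from 1.68e-07 to 3.47e-05). Against Ctrl it was -0.99, -0.64, -2.005 and -1.77 in the same order and was called lower each time. The call in BUTN against Ctrl was lost with DESeq2 (adjusted p = 0.0742), with scaling by library size alone (fold under 1.5), and without Ctrl replicate 2, BUTN replicate 1 or BUTN replicate 2 (limma-voom adjusted p = 0.0889, 0.0527 and 0.0618).

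CXCL3 was at 17.1 and 18.2 CPM in PRTN, at 28.3 and 32.2 in BUTN, at 11.2 and 7.01 in TNPR and at 14.4 and 11.2 in TNBU. All 8 libraries were below the TN libraries, and the BUTN libraries lay on either side of the Ctrl libraries. Against TN the log2 fold change was -1.97 ± 0.14, -1.19 ± 0.13, -2.95 ± 0.16 and -2.45 ± 0.15 (SE, limma-voom adjusted p from 1.46e-08 to 5.29e-06). Against Ctrl, CXCL3 was called lower in PRTN, TNPR and TNBU (-0.78, -1.76 and -1.26) and not in BUTN, where the 95% interval of the log2 fold change was -0.29 to 0.29.

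CXCL1, CXCL2 and CXCL3 are closely related genes that can share reads over part of their length. Of the 50-base windows of its transcripts, CXCL2 shared 13.4% with another member, CXCL3 6.01% and CXCL1 4.57%, and all other members 0. RSEM divided such reads between the genes, so the levels of these 3 are uncertain in part. Summed to 1 feature, the 3 were higher in TN than in Ctrl (log2 fold change 0.86 ± 0.18, limma-voom adjusted p = 0.0190) and lower than in TN under each SCFA treatment (PRTN -1.81, BUTN -1.37, TNPR -2.82, TNBU -2.54), each with an adjusted p of at most 3.05e-05 from limma-voom. CXCL1 itself, the founding GRO message, had only 1 to 15 counts per library, in contrast to its relatives. It had 6.27 and 10.5 expected counts in TN, 2.06 and 1.04 in TNPR and 1.05 and 2.11 in TNBU. The ratio of the summed counts to TN was 0.148 in TNPR (95% exact binomial interval 0.0279 to 0.513) and 0.165 in TNBU (0.0309 to 0.569), which covers counting error only. CXCL1 was called lower than TN in these 2 groups (limma-voom adjusted p = 0.00502 and 0.00770). DESeq2 did not call it (adjusted p = 0.0513 and 0.0690), nor did limma-voom in TNBU without TNBU replicate 1 (adjusted p = 0.0517). CXCL1 was not called against TN in PRTN (7.42 and 4.19 expected counts) or BUTN (10.6 and 14.6).

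CXCL8 changed less in size than CXCL2 and CXCL3 in each SCFA group and stayed the most abundant member in every group. It was at 1118 and 1074 CPM in PRTN, at 1243 and 1257 in BUTN, at 820.6 and 770.4 in TNPR and at 900.2 and 779.9 in TNBU. All were below TN, the PRTN and BUTN libraries were above Ctrl and the TNPR and TNBU libraries were below it. The log2 fold change against TN was -0.68 ± 0.06 in PRTN, -1.14 ± 0.06 in TNPR and -1.07 ± 0.06 in TNBU, and these were called (SE, limma-voom adjusted p from 1.62e-08 to 1.19e-06). With scaling by library size alone the change in PRTN was -0.53, a fold under 1.5. In BUTN the log2 fold change was -0.49 ± 0.06, which passed on the p (limma-voom adjusted p = 2.29e-05) but not on the fold. None of the 4 groups was called against Ctrl for CXCL8, with log2 fold changes of 0.22, 0.41, -0.24 and -0.16 and limma-voom adjusted p from 0.000127 to 0.0468.

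CXCL5 went the other way. It was at 12.9 and 13.2 CPM in PRTN, beside 14.0 and 14.3 in TN, and at 33.4 and 33.98 in BUTN, at 25.0 and 26.3 in TNPR and at 52.6 and 52.5 in TNBU. The PRTN libraries were just below the TN libraries, and the libraries of the other 3 groups were above them. Against TN the log2 fold change was -0.12 ± 0.08 in PRTN (limma-voom adjusted p = 0.264), 1.25 ± 0.08 in BUTN, 0.86 ± 0.08 in TNPR and 1.89 ± 0.08 in TNBU (SE, limma-voom adjusted p from 1.68e-09 to 1.20e-06 in these 3). With scaling by library size alone the sign in PRTN turned (0.04). Against Ctrl, CXCL5 was called higher in all 4 groups, with log2 fold changes of 1.88, 3.25, 2.86 and 3.89. Exons of CXCL5 overlap those of an annotated long noncoding RNA gene on the opposite strand by 422 bases. The expected counts of CXCL5 were not whole in any of the 12 libraries, although it shared no 50-base window with another member. The strand setting of the counting is not given, and the part of this overlap in the CXCL5 values was not tested. CXCL6, the closest relative of CXCL5 by promoter, remained too low to follow. It was at 0.463 and 0.213 CPM in PRTN, at 0.657 and 0.780 in BUTN, at 0.267 and 0.768 in TNPR and at 0.666 and 0.664 in TNBU, beside 0.596 and 0.251 in TN, and was not called against TN in any group. The call of CXCL6 in BUTN against Ctrl (log2 fold change 1.77, limma-voom adjusted p = 0.0372) was lost without any 1 of these 4 libraries (adjusted p from 0.0616 to 0.263).

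**Figure D2:**
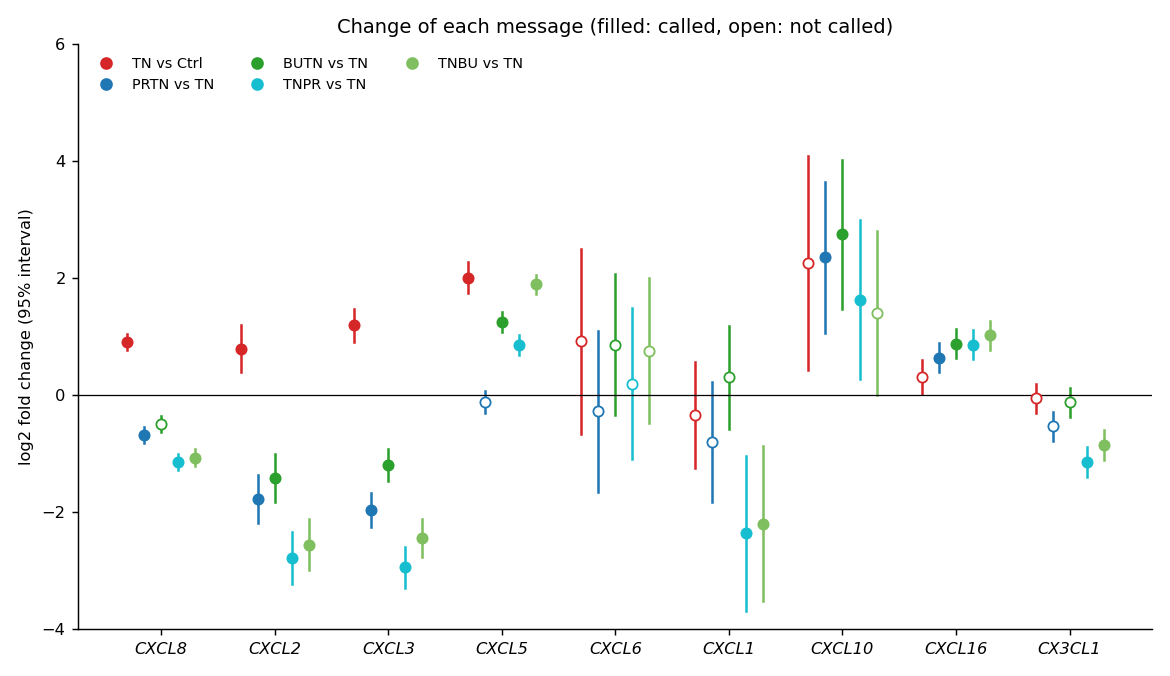
Log2 fold change of each tested message in TN against Ctrl and in each SCFA group against TN, with 95% intervals; filled points were called and open points were not. CXCL2 and CXCL3 lie below 0 in all 4 SCFA groups, CXCL16 lies above 0 in all 4, and CXCL5 runs from -0.12 in PRTN to 1.89 in TNBU. The fitted values of CXCL10 and CXCL1 rest on a few counts, and CXCL10 had none in Ctrl and passed the filter only through the SCFA groups. The filled points of CXCL10 are therefore not given as results.

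The makeup of the ELR messages shifted accordingly. Summed per kilobase, the 6 ELR messages stood at 495.5 ± 4.26 CPM in Ctrl (SD, n = 2) and 919.6 ± 39.9 in TN. With the acid given first the sum was 496.1 ± 11.9 for PRTN and 586.3 ± 5.01 for BUTN, and with the acid given afterwards 352.8 ± 27.5 for TNPR and 387.2 ± 42.6 for TNBU. PRTN was thus at 54.0% of TN, BUTN at 63.8%, TNPR at 38.4% and TNBU at 42.1%, where Ctrl was at 53.9%. CXCL8 held 73.9% ± 0.416 of the sum in TN and 82.4% to 87.2% in the SCFA groups. CXCL2 held 22.0% ± 0.723 in TN and 11.9% ± 0.251, 12.8% ± 0.182, 8.52% ± 3.00 and 8.93% ± 1.28 in PRTN, BUTN, TNPR and TNBU. CXCL5 held 0.293% ± 0.0336 in Ctrl, 0.633% ± 0.0364 in TN, and 1.08% ± 0.0385, 2.36% ± 0.00783, 3.00% ± 0.334 and 5.61% ± 0.611 in the 4 SCFA groups in the same order. Even at its highest, CXCL5 was a small part of the neutrophil-attracting messages.

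**Figure D3:**
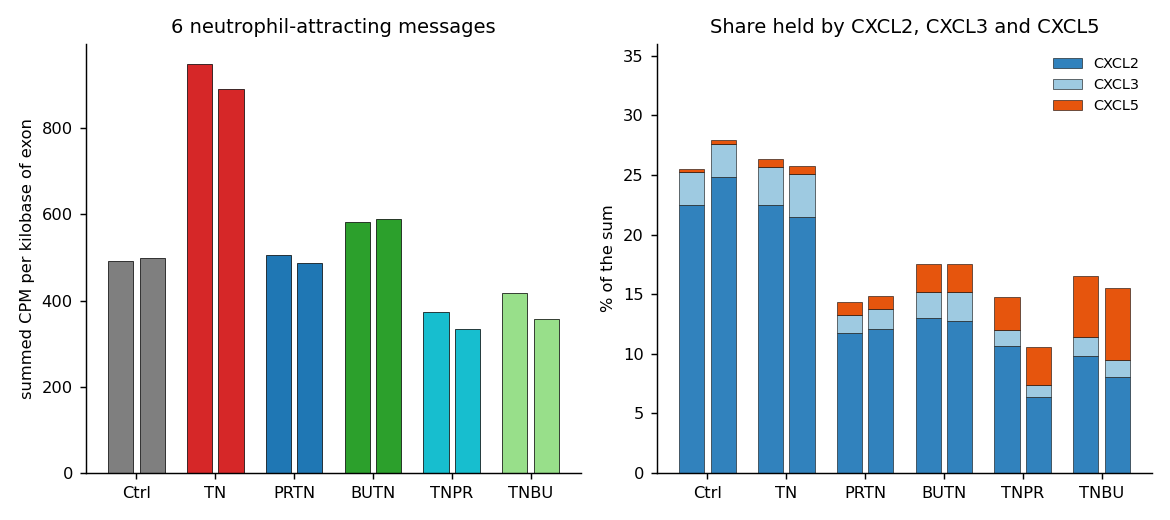
Left, the summed level of the 6 ELR messages in each library in CPM per kilobase of exon, from an axis that starts at 0; right, the share of that sum held by CXCL2, CXCL3 and CXCL5 in each library, in percent, with the remainder almost all CXCL8. The sum was highest in TN (919.6 on average), and the CXCL5 share was highest in TNBU (5.61% on average).

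The interferon-type members stayed close to the detection limit. The PRTN libraries had 11 and 18 counts of CXCL10, the BUTN libraries 15 and 22, the TNPR libraries 9 and 7 and the TNBU libraries 6 and 6, against 0 and 0 for Ctrl and 1 and 3 for TN. All 8 SCFA libraries were above the TN libraries. Relative to the floor of 3 counts per library in Ctrl, the mean level of CXCL10 was 4.11-fold for PRTN, 5.25-fold for BUTN, 2.33-fold for TNPR and 1.94-fold for TNBU. These folds leave out the counting error of the SCFA libraries and are not lower bounds. The ratio of the summed counts to TN was 5.88 for PRTN (95% exact binomial interval 2.07 to 23.0), 7.60 for BUTN (2.73 to 29.4), 3.37 for TNPR (1.09 to 13.8) and 2.80 for TNBU (0.848 to 11.9). These intervals cover counting error only. CXCL10 passed the filter on low counts only through the SCFA groups, where it was highest (geometric mean count 5.10 over all libraries and 0.682 over Ctrl and TN, at a minimum of 1). Its test against TN or Ctrl is therefore not given as a result, and it is counted apart from the other members in these comparisons.

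The membrane-bound members went in opposite directions, CXCL16 upwards in all 4 SCFA groups and CX3CL1 downwards in TNPR and TNBU. CXCL16 was at 12.9 and 13.8 CPM in PRTN, at 16.2 and 15.3 in BUTN, at 16.0 and 15.2 in TNPR and at 18.4 and 16.4 in TNBU, beside 6.42 to 9.27 CPM in the Ctrl and TN libraries. All 8 SCFA libraries were above those 4. The log2 fold change against TN was 0.64 ± 0.12, 0.87 ± 0.11, 0.86 ± 0.11 and 1.02 ± 0.11, each called higher (SE, limma-voom adjusted p from 7.64e-06 to 0.000441). In PRTN the fold fell under 1.5 without TN replicate 1 (log2 fold change 0.49) or PRTN replicate 2 (0.56). Exons of CXCL16 overlap those of ZMYND15 (96 bases) and MED11 (76 bases) on the opposite strand, and the strand setting of the counting is not given in the sources used here. MED11 had 152 to 226 counts per library and was not called in any comparison. ZMYND15 had 2 to 22 counts and was called higher than Ctrl in all 4 SCFA groups. Its log2 fold changes were 1.88, 2.67, 2.07 and 2.285 for PRTN, BUTN, TNPR and TNBU (limma-voom adjusted p from 0.00633 to 0.0464). Against TN it was called higher in BUTN (log2 fold change 1.76, limma-voom adjusted p = 0.0248). It was not called against TN in PRTN, TNPR or TNBU (0.97, 1.16 and 1.38). The part of these overlaps in the CXCL16 values was not tested.

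CX3CL1 was at 74.6 and 74.3 CPM in PRTN, at 102.3 and 96.0 in BUTN, at 54.9 and 43.3 in TNPR and at 67.5 and 52.6 in TNBU, beside 101.3 and 115.2 in TN. The BUTN libraries overlapped with TN, and the other 3 groups were below it. The log2 fold change against TN was -1.14 ± 0.12 in TNPR and -0.86 ± 0.12 in TNBU, both called lower (SE, limma-voom adjusted p = 3.98e-06 and 4.74e-05). In PRTN it was -0.54 ± 0.12, with an adjusted p of 0.00156 from limma-voom but a fold under 1.5. In BUTN it was -0.13 (95% interval -0.37 to 0.12). The message of the sheddase ADAM17 was at 129 ± 1.77 CPM in TN and was lower in PRTN, TNPR and TNBU (log2 fold change -0.62, -0.79 and -0.75), whereas in BUTN its change of -0.48 was under 1.5-fold. ADAM10 was not called, at 197 ± 4.59 CPM in TN and 175 ± 3.86 to 194 ± 4.02 CPM in the SCFA groups.

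Counted over the 8 tested members other than CXCL10, PRTN had 1 called higher and 3 lower than TN, where 23.9% and 16.7% of all tested genes were, and without TN replicate 1 or PRTN replicate 2 none of the 8 was higher (0). In BUTN 2 were called higher and 2 lower (all genes 23.1% and 14.8%), in TNPR 2 and 5 (24.9% and 16.9%) and in TNBU 2 and 5 (25.0% and 16.5%). With CXCL10, whose test is not given as a result, the counts of higher members were 2, 3, 3 and 2. They serve only as the base for the alternatives given at the end. The median log2 fold change of the 8 against TN was -0.61 for PRTN, 0.09 for BUTN, -1.14 for TNPR and -0.96 for TNBU, beside 0.09, 0.08, 0.12 and 0.09 over all tested genes. Against Ctrl, 6 of the 8 were called for PRTN, 4 for BUTN, 6 for TNPR and 6 for TNBU, where 39.4%, 36.9%, 40.4% and 40.0% of all genes were called. The base for the alternatives against Ctrl takes in CXCL10, which adds 1 to each and is not a result. In PRTN the call of CXCL1 against Ctrl was lost with edgeR (adjusted p = 0.0644), DESeq2 (adjusted p = 0.328), library size scaling and no filter. It was also lost with the compared groups alone, the replicate block and without any 1 of the 4 libraries (log2 fold change from -1.52 to -0.84). CX3CL1 in PRTN was under 1.5-fold against Ctrl with DESeq2, with relative log expression scaling and with library size scaling. The same held for CX3CL1 with the filter that removes any gene with a 0 and without Ctrl replicate 1. All these comparisons share the TN or the Ctrl libraries.

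CXCL5 had the smallest p of all tested genes between the propionate and the butyrate groups. Between PRTN and BUTN 2 of the 9 members were called, both lower in PRTN, where 0.168% of all tested genes were called in either direction. CXCL5, at 12.9 and 13.2 CPM in PRTN against 33.4 and 33.98 in BUTN, had a log2 difference of -1.37 ± 0.07 (SE, limma-voom adjusted p = 8.00e-06), which placed it at rank 1 of the 24342 genes by p. CXCL3, at 17.1 and 18.2 CPM against 28.3 and 32.2, had a log2 difference of -0.78 ± 0.14 (limma-voom adjusted p = 0.0363). This call was lost with no filter on low counts (adjusted p = 0.0533) and without any 1 of the 4 libraries (limma-voom adjusted p from 0.192 to 0.379), and the sum of CXCL1, CXCL2 and CXCL3 did not pass (-0.44, adjusted p = 0.325). When the acids followed TNF-α, the separation of CXCL5 was again present. Between TNPR and TNBU 1 member was called, where 0.00822% of all genes were. CXCL5 was at 25.0 and 26.3 CPM in TNPR against 52.6 and 52.5 in TNBU, a log2 difference of -1.04 ± 0.07 (limma-voom adjusted p = 4.23e-05), again at rank 1. In this contrast 2 genes in all were called, CXCL5 and LCN2 (lipocalin 2, a tubular injury marker, named after its values were seen), with a log2 difference of -0.79 ± 0.05 for LCN2 and the same adjusted p of limma-voom. The call of CXCL5 was lost where only the TNPR and TNBU libraries entered the fit (log2 difference -1.03, adjusted p = 0.185).

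The remaining members did not pass between the acids, although intervals were wide for the scarce messages. The 95% interval of the log2 difference between PRTN and BUTN was -0.78 to 0.08 for CXCL2, -0.33 to -0.05 for CXCL8, -0.45 to -0.02 for CXCL16, -0.66 to -0.16 for CX3CL1, -1.17 to 0.39 for CXCL10, -2.07 to -0.14 for CXCL1 and -2.35 to 0.06 for CXCL6. Between TNPR and TNBU it was -0.72 to 0.26 for CXCL2, -0.90 to -0.10 for CXCL3, -0.22 to 0.07 for CXCL8, -0.37 to 0.05 for CXCL16 and -0.56 to -0.02 for CX3CL1. Of the leukocyte markers, CD68 was also lower in PRTN than in BUTN (log2 difference -0.72, limma-voom adjusted p = 0.0183), with summed leukocyte markers of 31.0 to 31.2 CPM for PRTN, 45.1 to 48.8 for BUTN, 33.2 to 39.4 for TNPR and 50.5 to 57.8 for TNBU. PTPRC had at most 5 counts in any of these libraries, and the part of other cells in the CXCL5 difference was not tested.

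With both acids CXCL5 was higher and CXCL3 lower where the acid followed TNF-α. Between TNPR and PRTN 2 members were called, where 0.160% of all genes were. CXCL5 was higher in TNPR (log2 difference 0.97 ± 0.08, limma-voom adjusted p = 0.000138) and CXCL3 was lower (-0.98 ± 0.17, adjusted p = 0.0465). Without PRTN replicate 1, PRTN replicate 2 or TNPR replicate 2 the call of CXCL3 was lost (limma-voom adjusted p = 0.232, 0.236 and 0.169), as it was with edgeR (adjusted p = 0.0557). Between TNBU and BUTN 4 members were called, where 0.267% of all genes were. CXCL5 was higher in TNBU (0.64 ± 0.06, limma-voom adjusted p = 0.00111), whereas CXCL3 (-1.26 ± 0.16, adjusted p = 0.00451), CXCL2 (-1.14 ± 0.21, adjusted p = 0.0330) and CX3CL1 (-0.73 ± 0.12, adjusted p = 0.0159) were lower. CXCL2 and CX3CL1 lost their calls without BUTN replicate 1, BUTN replicate 2 or TNBU replicate 2 (limma-voom adjusted p from 0.0731 to 0.248), and CXCL3 without BUTN replicate 2 (0.0605). None of the 4 passed where only the TNBU and BUTN libraries entered the fit (adjusted p from 0.0654 to 0.163). CXCL8 was lower at the later addition by a log2 difference of -0.46 ± 0.06 with propionate and -0.58 ± 0.06 with butyrate, below 1.5-fold for each (limma-voom adjusted p = 0.0101 and 0.00207). In TNPR and TNBU the cells were also collected later after TNF-α, which cannot be told apart from the order of treatment.

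Whether the propionate to butyrate difference itself changed with timing was tested as a difference of differences. No member and no gene passed with limma-voom (0 of 9 and 0 of 24342). At an unadjusted p under 0.05 with a fold over 1.5, 694 genes and 0 members passed. Among all genes edgeR called 1 and DESeq2 5, and neither called a member. For CXCL5 the difference was 0.33 on the log2 scale (95% interval 0.11 to 0.55, limma-voom adjusted p of 1.00).

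**Figure D4:**
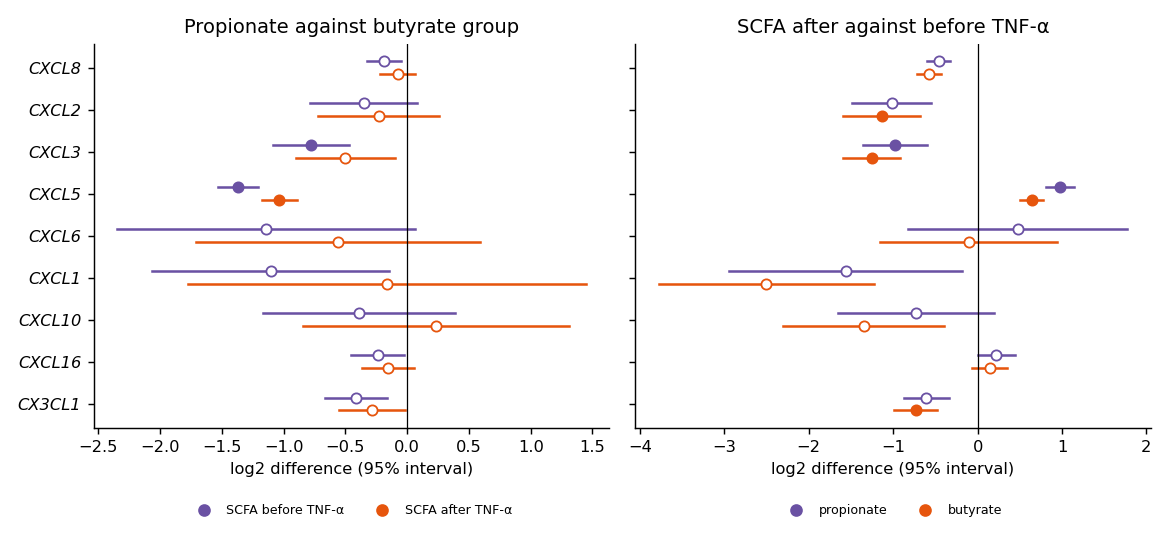
Left, log2 difference of the propionate from the butyrate group for each message, with the acid given before or after TNF-α; right, log2 difference of the later from the earlier addition for each acid, all with 95% intervals (filled, called; open, not called). CXCL5 is the message called in all 4 contrasts, at -1.37 and -1.04 on the left and at 0.97 and 0.64 on the right.

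Within the chromosome 4 cluster, neighbouring genes went in opposite directions in 3 SCFA groups. CXCL5 (73995642 to 73998677), CXCL3 (74036589 to 74038807) and CXCL2 (74097040 to 74099196), all on the minus strand, stood side by side among the protein-coding genes, with CXCL5 above TN and the other 2 below it in BUTN, TNPR and TNBU. PPBP, the platelet chemokine CXCL7 and the gene beside CXCL5 among the protein-coding genes, was singled out after its values were seen. Neither Ctrl library held a count of it (0 and 0), and the TN libraries held 2 and 0. PRTN had 4 and 9 counts, BUTN 12 and 18, TNPR 9 and 15, and TNBU 17 and 38. PPBP passed the filter only through the SCFA groups (geometric mean count 0.316 over Ctrl and TN), so no test of it is given. The ratio of its summed counts to TN was 5.28 for PRTN, 12.3 for BUTN, 10.1 for TNPR and 25.6 for TNBU. These ratios rest on the 2 and 0 counts of TN and only describe a gene chosen on these values. The platelet factor genes PF4 and PF4V1 in the same cluster had at most 3 counts in any library.

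**Figure D5:**
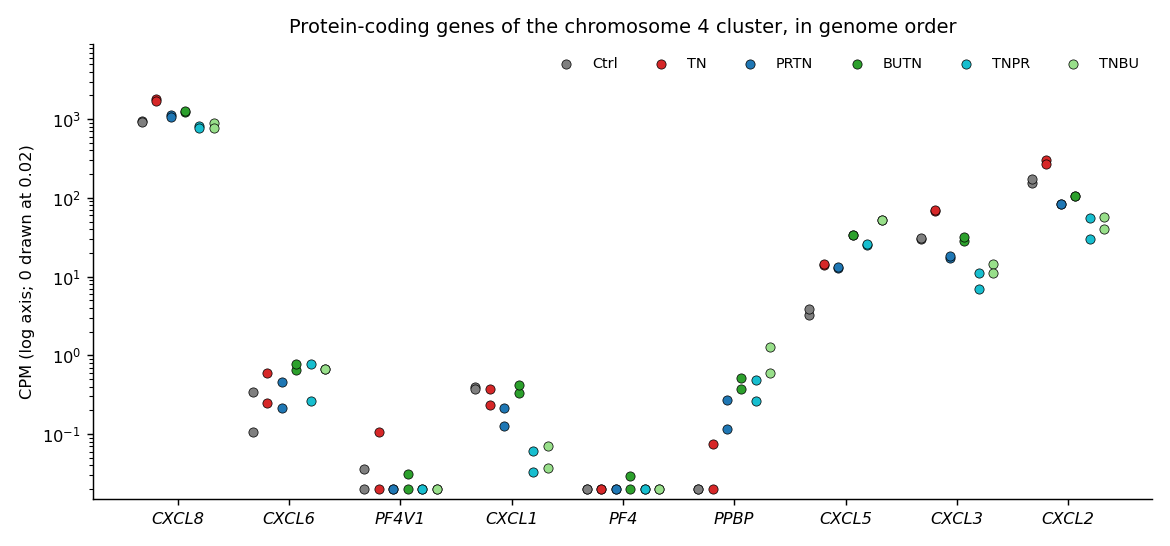
Level of the protein-coding genes of the chromosome 4 chemokine cluster in their genome order, in CPM on a log axis with counts of 0 drawn at 0.02; points are libraries, 2 in each group. PPBP and CXCL5 are highest in TNBU, whereas their neighbours CXCL3 and CXCL2 are highest in TN.

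Genes that act on these messages were counted as well. Of 11 NF-κB subunits and inhibitors, 6 were higher and 0 lower in TN than in Ctrl (all genes 0.764% and 0.534%), with a median log2 fold change of 0.67. Against TN, 1 was higher and 3 lower for PRTN as well as for BUTN, and 0 were higher and 5 lower for TNPR as well as for TNBU. Over all tested genes, 23.1% to 25.0% were higher and 14.8% to 16.9% lower than TN in these 4 comparisons. TNFAIP3 (A20, an NF-κB feedback inhibitor) rose from 110 ± 2.002 CPM without TNF-α to 489 ± 12.5 with it (SD, n = 2) and stood at 220.5 ± 5.64 for PRTN, 287 ± 1.28 for BUTN, 156 ± 4.17 for TNPR and 179 ± 9.91 for TNBU. NFKB1, which encodes the p50 precursor, rose to 158 ± 6.21 CPM in TN and was called lower than that under all 4 SCFA treatments (log2 fold change -1.69, -1.29, -2.36 and -2.12 for PRTN, BUTN, TNPR and TNBU). NFKBIA (IκBα) was called lower as well (-1.31, -1.19, -1.95 and -1.93). NFKB2 rose with TNF-α (log2 fold change 1.00) and was not called against TN in any SCFA group.

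Of 14 genes of the interferon path, 13 were tested, and 3 were higher and 0 lower in TN than in Ctrl (all genes 0.764% and 0.534%). Against TN, 1 was higher and 6 lower for PRTN, 2 and 5 for BUTN, 1 and 7 for TNPR and 2 and 7 for TNBU, beside the same 23.1% to 25.0% higher and 14.8% to 16.9% lower over all genes. JAK1, a receptor-bound kinase of the path, was lower in all 4 groups (log2 fold change -1.45, -1.38, -1.45 and -1.45), as was IRF9, a DNA-binding factor of the path (-1.63, -1.17, -1.52 and -1.38). A further list of 9 held factors that bind AU-rich or stem-loop elements of short-lived messages, and MAPKAPK2, a kinase that acts on ZFP36. Of these, 0 were called in TN against Ctrl. In PRTN, BUTN, TNPR and TNBU, 2, 3, 3 and 4 were lower than TN, where 16.7%, 14.8%, 16.9% and 16.5% of all genes were. With 9 genes, a count of 2 is near that share. ZC3H12A, which encodes the RNase Regnase-1, was at 188 ± 6.20 CPM in TN and fell by 1.24 to 1.47 on the log2 scale in the 4 groups. ZFP36 (tristetraprolin) was the 1 factor called higher, in PRTN (log2 fold change 1.08, limma-voom adjusted p = 0.0168).

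Of the 11 receptors and decoy receptors of these ligands, 5 were tested. CXCR4, the receptor of CXCL12, had 0.0523 ± 0.0232 CPM in Ctrl, 0.0180 ± 0.0254 in TN and 2.36 ± 0.0687 to 2.79 ± 0.307 in the SCFA groups. These were 0 to 2 counts per library in Ctrl and TN and 69 to 99 with SCFA. CXCR4 passed the filter only through the SCFA groups (geometric mean count 0.861 over Ctrl and TN), so no test of it is given. CXCL12, named after its values were seen, fell from 30 and 22 counts in TN to at most 6 in any SCFA library. Among the CC and XC chemokines, 28 listed and 9 tested, 2 were higher and 0 lower in TN (all genes 0.764% and 0.534%), and 2 were lower than TN in each SCFA group, near the 14.8% to 16.9% of all genes. Of the 9, 5 passed the filter only through the SCFA groups, so the number called higher there is not given. CCL20, which draws CCR6-bearing lymphocytes, was at 214 ± 2.77 CPM in TN and rose to 693 ± 138 to 992 ± 69.0 in the SCFA groups. CCL2 (MCP-1), the monocyte attractant, fell from 19.4 ± 1.80 CPM in TN to 1.94 ± 0.482 to 3.87 ± 0.165.

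Over the 12 libraries, the genes whose log2 CPM most resembled that of each member are given as a description, among 14978 tested genes with a mean of at least 1 CPM. The libraries share groups of treatment, so that many genes follow the same steps. The closest to CXCL2 was NFKBIA (r = 0.989), followed by STIL (0.987) and IFNGR2 (0.986). The closest to CXCL3 were MAP3K8 (0.983), PDGFB (0.982) and NFKB1 (0.981), and to CXCL8 IFNGR1 (0.981), TNFRSF10B (0.980) and VHL (0.977). CXCL5 was most like SERPINA1 (0.982), FAM134B (0.961) and CD47 (0.944). CXCL16 was most like GJA3 (0.991), CX3CL1 most like EEF1G (0.985) and CXCL10 most like DPYSL2 (0.982), the last on few counts.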

How the data were processed

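Messenger RNA of HK2 cells was sequenced in 12 libraries. The 6 groups of 2 biological replicates were taken from the source label of each library. The general treatment text of the labels names thapsigargin and JQ1 instead, and the library labels were followed. The authors made the expected counts per gene that they deposited from stranded mRNA libraries, by alignment to GRCh38 with STAR 2.6.1a (version per the submitters' processing notes) and RSEM on GENCODE 26. The strand setting and RSEM version are not given in the sources used here. The deposited expected counts are neither scaled nor filtered, 19.3% are not whole, and reads shared by similar genes are divided between them.

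Expected counts were tested unrounded with limma 3.58.1 in R 4.3.3 (voom weights, TMM factors from edgeR 4.0.16, a mean for each group, prior degrees of freedom 6.12). Genes were kept at a geometric mean count of 1 or more, computed after adding 1 to each count and removing it again. This left 24342 genes and dropped 33936. Adjustment was Benjamini-Hochberg over all kept genes, and calls needed both an adjusted p under 0.05 and a change of over 1.5-fold. Intervals are 95% and, like the floor of 3 counts, cover counting error only where taken from counts. Lengths and positions come from GENCODE 44. The fits were tested on simulated data.

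All 10 members are named. Of each list of related genes at most 5 are named, those with the largest change among called genes at 1 CPM or more in the higher group. Likeness of pattern takes the 3 genes with the highest Pearson correlation. The members and lists were chosen with earlier results of these data known. Alternatives were edgeR and DESeq2 1.42.0 on rounded counts, other scalings, filters and thresholds, fits of the compared groups alone, CXCL1, CXCL2 and CXCL3 summed, a replicate block and leaving out each replicate.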

Additional observations from a re-analysis of the deposited data

Results flagged for a closer look

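Differences between the later and the earlier addition of the same acid passed the test for several messages. With propionate, TNPR against PRTN, the log2 difference was 0.97 for CXCL5 and -0.98 for CXCL3. With butyrate, TNBU against BUTN, it was 0.64 for CXCL5, -1.14 for CXCL2, -1.26 for CXCL3 and -0.73 for CX3CL1. The report gives the libraries on which each of these calls depends. With 2 libraries in a group, no test for a library far from the others of its group could be made.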

How the results depend on the processing

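Over the alternatives, 1831 of the 1980 recomputed values for single members kept direction and side of the threshold, 91 lost a call, 23 gained one and 35 changed sign, and 272 of the 308 counts of called members stayed within 1.5 times. With 2 libraries in a group and 3 or fewer counts of CXCL1 and CXCL10 in several libraries, small changes of scarce messages were not detectable. The counts here take in all 9 tested members, CXCL10 included. They describe the dependence on processing only, because the test of CXCL10 against TN or Ctrl is not given as a result. At a fold threshold of 2, 2 members were higher in TN than in Ctrl. With that threshold 1 was higher in PRTN and 1 in TNPR than in TN. Both times this was CXCL10, so no member whose test is given as a result was higher there. The same threshold gave 3 called in PRTN against Ctrl, CXCL10 among them, and 1 in PRTN against BUTN. It gave 0 in TNPR against PRTN and 2 in TNBU against BUTN. The filter that removes any gene with a 0 gave 1 member higher in PRTN than in TN, and CXCL10 was not tested there. DESeq2 called 3 members in BUTN against Ctrl, and edgeR 1 in TNPR against PRTN. With no filter, 1 member was called in PRTN against BUTN and 1 in TNPR against PRTN, and the default filter of edgeR gave 1 in the latter. Fits of the compared groups alone, with fewer libraries to estimate the spread, called 0 in TNPR against TNBU, 1 in TNPR against PRTN and 0 in TNBU against BUTN. The unadjusted p gave 5 in TNPR against PRTN. The summed feature gave 1 in PRTN against BUTN and 1 in TNPR against PRTN, and has no separate value for CXCL1, CXCL2 or CXCL3. The cause of these shifts was otherwise not tested.

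No pairing of libraries with equal replicate numbers was seen. Over the 15 pairs of groups, deviations of same-numbered libraries correlated from -0.0334 to 0.0670, with 0 over 0.1. These correlations took in all tested genes, scarce ones with much counting error included, and so cannot exclude a pairing. With the replicate block, 1 member was called in PRTN against BUTN and 1 in TNPR against PRTN.

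Leaving out each library in turn gave 0 to 2 members higher in PRTN than in TN, 3 to 4 called in BUTN against Ctrl, 1 in PRTN against BUTN, 1 to 4 in TNPR against PRTN and 2 to 5 in TNBU against BUTN. All sign changes were in values that were not called. Library size scaling gave a log2 fold change of 0.0389 for CXCL5 in PRTN against TN, 0.0276 for CX3CL1 in BUTN against TN and 0.0528 for CXCL1 in BUTN against Ctrl, where edgeR gave 0.0175 and DESeq2 0.041. CXCL3 in BUTN against Ctrl was -0.0239 without a filter, -0.0349 with the default filter of edgeR, -0.004265 with the compared groups alone and -0.000464 with the replicate block. Without single libraries the log2 fold change ran from -0.15 to 0.0388 for CX3CL1 in TN against Ctrl, and against TN from -0.92 to 0.28 for CXCL6 in PRTN, from -0.58 to 0.91 for CXCL6 in TNPR and from -0.0468 to 0.60 for CXCL1 in BUTN. Against Ctrl it ran from -0.12 to 1.41 for CXCL6 in PRTN, from -0.22 to 0.10 for CXCL1 and from -0.09496 to 0.07915 for CXCL3 in BUTN. In TNPR against TNBU it ran from -0.51 to 0.15 for CXCL1, from -0.70 to 0.18 for CXCL2, from -1.30 to 0.19 for CXCL6 and from -0.20 to 0.0138 for CXCL8. For CXCL6 it ran from -0.27 to 1.23 in TNPR against PRTN and from -0.23 to 0.0026 in TNBU against BUTN. The difference of differences ran from -0.33 to 0.55 for CXCL2, from -0.0700 to 0.59 for CXCL3, from -0.15 to 1.34 for CXCL6, from -0.0157 to 0.16 for CXCL16 and from -0.06495 to 0.31 for CX3CL1.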
